A study of Arabidopsis with 12 samples.

Results

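Aquaporins are the channel proteins through which water and small uncharged solutes cross plant membranes, and 35 genes of the family were followed here, chosen by locus, among the 32833 genes of the table. The 35 comprise 5 PIP1, 8 PIP2, 10 TIP, 9 NIP and 3 SIP genes. RNA-seq was done on whole Arabidopsis seedlings, of wild-type Col-0 or of the mutant bzip59 (SALK_024459), a single insertion line in bZIP59, which encodes a basic leucine zipper transcription factor. All seedlings were 7 days old and had grown in continuous white light. In each genotype a group kept in white light was compared with a group given 2 h of shade, a red to far-red ratio of 0.65 that mimics light filtered through leaves. Each of the 4 groups had 3 libraries, and the comparisons ask how shade changed transcripts and whether bZIP59 takes part. Levels are in TPM, a relative transcript abundance scaled to transcript length, and are given as mean ± SD with n = 3 unless every library is listed.

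Plasma membrane intrinsic proteins (PIPs) carry water across the cell surface, and the PIP1 type is known, from maize, to need a PIP2 partner to leave the endoplasmic reticulum. Tonoplast intrinsic proteins (TIPs) lie in the vacuole membrane and let the vacuole exchange water, ammonia and urea with the cytoplasm as cells swell. Nodulin 26-like proteins (NIPs) carry metalloids such as boric acid and arsenite, and small basic proteins (SIPs) lie in the endoplasmic reticulum. Shade low in red light makes seedling stems elongate, a form of growth that depends on water entering the cells.

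The label of the mutant held: bZIP59 (AT2G31370) measured 20.6 ± 2.71 TPM in the Col-0 white-light libraries, 23.1 ± 3.23 in Col-0 shade, 4.15 ± 1.2 in bzip59 white light and 7.33 ± 1.1 in bzip59 shade. Transcript of the gene was thus lower and still present in the insertion line. The depth behind these values is unknown, since TPM keeps no read counts, and each library had between 18950 and 19689 genes at 1 TPM or more. The labels do not say that the 3 libraries of a group were grown separately, so p-values measure only the spread between these samples. In whole seedlings, fewer cells of a type and less RNA per cell cannot be told apart. Several libraries stood apart. The summed TPM of 17 dehydration and abscisic acid genes was 2092 in Col-0 shade 1 and 1938 in bzip59 shade 2, against 636 to 854 in the other 4 shade libraries and 855 to 1186 in white light. Not all of the 17 went with that sum. In Col-0, 3 of them were lower in every shade library than in every white-light library, and 2 were higher. In bzip59 1 was lower and 2 were higher. Of all tested genes 15.8% were so lower and 12.1% higher in Col-0, and 10.5% and 21.5% in bzip59. The white-light libraries numbered 2 had the lowest summed aquaporin TPM of their groups, 4097 in Col-0 and 4785 in bzip59, against 5828 to 6726 in the other 4 white-light libraries. They held the lowest value of their group for 25 and 20 of the 29 tested aquaporins, and for 36.1% and 56.2% of all tested genes. Aquaporin calls gained or lost without these libraries are given beside the genes or in the closing limits. Rescaling by TMM, which aligns the bulk of genes between libraries, moved the median log2 change of all genes for shade in bzip59 from 0.11 to 0.01. It also moved the rising share of all called genes there from 63.7% to 47.1%, while the aquaporins called were the same.

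In level, 3 subfamilies made up nearly all of the family. Summed over members, the PIP1 genes gave 1489 ± 375 TPM in the Col-0 white-light libraries, the PIP2 genes 1822 ± 423 and the TIP genes 2067 ± 515. The NIP genes summed to 77 ± 18.2 TPM and the SIP genes to 109 ± 13.6 there. The whole family took between 0.437% and 0.812% of all TPM in a library. Averaged over all libraries, 13 genes reached 100 TPM, which were all 5 PIP1, 4 PIP2 and 4 TIP genes and no NIP or SIP gene.

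**Figure D1:**
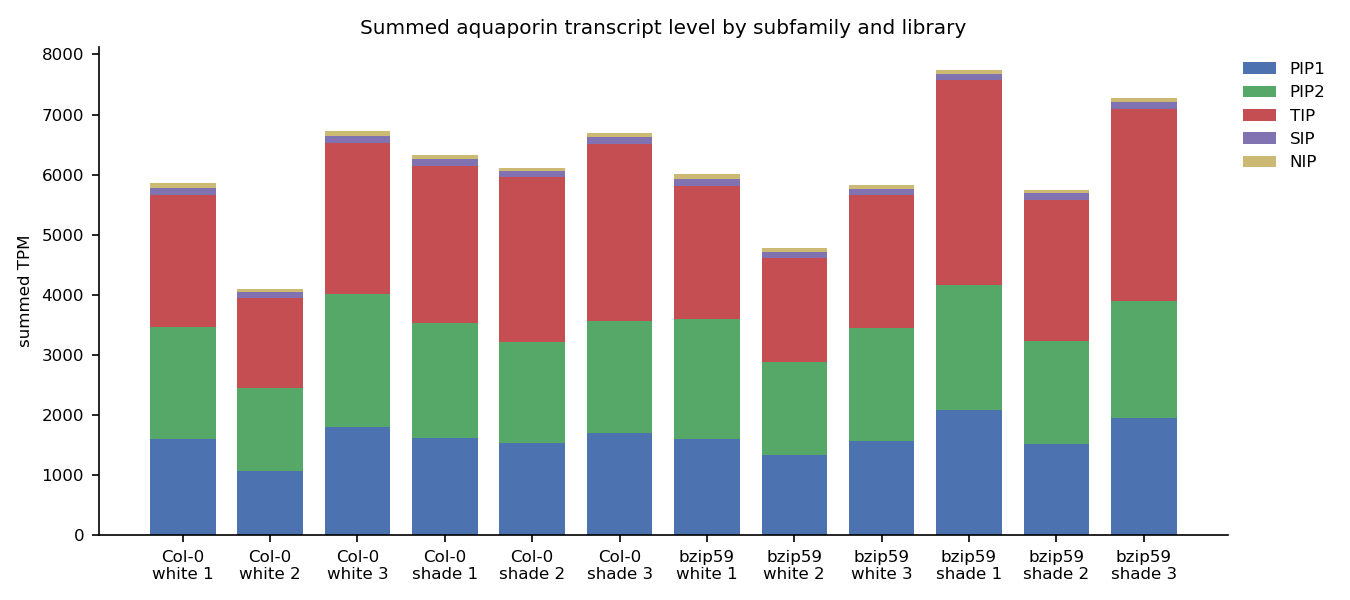
Summed TPM of the aquaporin genes (vertical axis) in each of the 12 libraries (horizontal axis), stacked by subfamily. The bars run from 4097 TPM in Col-0 white light 2 to 7737 TPM in bzip59 shade 1, and PIP1, PIP2 and TIP genes fill nearly all of each.

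TIP1-2 (AT3G26520), a major channel of the large vacuole of vegetative cells, had the highest mean of the family at 1113 TPM. It was followed by PIP2-7 (AT4G35100) at 661, PIP1-2 (AT2G45960) at 657, TIP2-1 (AT3G16240) at 656 and PIP2-1 (AT3G53420) at 644 TPM, whose ranges over the libraries overlapped. TIP1-1 (AT2G36830), the second vegetative vacuole isoform, came next at 499 TPM. PIP1-3 (AT1G01620) at 301, PIP1-1 (AT3G61430) at 277, PIP2-2 (AT2G37170) at 235, PIP2-6 (AT2G39010) at 221, PIP1-5 (AT4G23400) at 199, PIP1-4 (AT4G00430) at 178 and TIP2-2 (AT4G17340) at 140 TPM formed a lower tier. The other PIP2 genes were well under these, PIP2-3 (AT2G37180) at 42.1, PIP2-8 (AT2G16850) at 22.4, PIP2-4 (AT5G60660) at 14.7 and PIP2-5 (AT3G54820) at 5.34 TPM. PIP2-2 and PIP2-3 are close copies whose reads could be split between them, and the counting of such reads is not stated. The root-type tonoplast genes TIP2-3 (AT5G47450) and TIP4-1 (AT2G25810) stood at 33.9 and 20.6 TPM.

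The NIP and SIP genes were low in these seedlings. SIP1-1 (AT3G04090) led them at 75.7 TPM, then NIP1-1 (AT4G19030), which in Arabidopsis carries arsenite, at 27.9, SIP2-1 (AT3G56950) at 26.1, NIP1-2 (AT4G18910) at 17 and NIP5-1 (AT4G10380), the boric acid channel of roots, at 13 TPM. SIP1-2 (AT5G18290) at 6.6, NIP6-1 (AT1G80760) at 6.27, NIP3-1 (AT1G31885) at 3.04, TIP3-1 (AT1G73190) at 2 and TIP3-2 (AT1G17810) at 1.27 TPM completed the 29 genes that reached the mean of 1 TPM required for testing. TIP3-2 passed that filter through its white-light groups, so it had to be lower in shade, and its tests are given as a description and support nothing. The remaining 6 genes were not tested. NIP4-2 (AT5G37820) at 0.863, NIP2-1 (AT2G34390) at 0.593 and NIP7-1 (AT3G06100) at 0.35 TPM were low in every group, TIP1-3 (AT4G01470) and TIP5-1 (AT3G47440) were listed at 0 in 11 of 12 libraries, and NIP4-1 (AT5G37810) was listed at 0 in all 12. NIP7-1, TIP1-3, TIP5-1 and the NIP4 pair are best known from anthers and pollen, and NIP4-1 and NIP4-2 are near copies whose split of reads is uncertain.

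Under shade in Col-0, PIP2-6 rose, and apart from TIP3-2, which entered the test through its white-light level, no other tested aquaporin was called. The fit was limma on log2(TPM + 1), with Benjamini-Hochberg adjustment over all 19693 tested genes and a call at adjusted p under 0.05. Of all tested genes 9.92% were called, 3.42% rising and 6.5% falling, and the aquaporin calls were 2 of 29 with TIP3-2 and 1 without it, which is no more than that background. An unadjusted p under 0.05 was reached by 7 of 29, against 22.6% of all tested genes. The median log2 change was 0.04 over the tested aquaporins and -0.01 over all tested genes.

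PIP2-6, a plasma membrane water channel known from leaf veins, measured 159, 144 and 164 TPM in the Col-0 white-light libraries and 258, 281 and 276 TPM in shade. Every shade library lay well above every white-light library. The log2 change was 0.80 (95% interval 0.56 to 1.04, limma adjusted p 0.0008), and the shade mean was 174% of the white-light mean. Over 26 alternative analyses, some of which could alter only the estimate of spread, its log2 change in Col-0 ran from 0.74 to 0.86. It was called in all 26.

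TIP3-2, a channel of the protein storage vacuoles of seeds, measured 2.11, 2.72 and 2.02 TPM in the Col-0 white-light libraries and 0.49, 0.4 and 0.59 TPM in shade. The groups did not overlap, at levels near the floor of the table. Its log2 change was -1.13 (95% interval -1.69 to -0.58, limma adjusted p 0.0150), and with a pseudocount of 0.1 it was -2.01. The test fell short without Col-0 white light 2 (limma adjusted p 0.0624) and without Col-0 shade 2 (limma adjusted p 0.0587). The summed TPM of 13 seed storage genes moved alongside, 27, 23.6 and 19.5 in Col-0 white light and 14.7, 9.59 and 5.94 in shade, and 2 of those 13 genes were at 0 in all Col-0 shade libraries. Its part in the TIP3-2 result was not tested.

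PIP2-1, a water channel of roots, leaf veins and guard cells, measured 774, 603 and 936 TPM in the Col-0 white-light libraries and 565, 496 and 552 TPM in shade. The shade libraries were all below the white-light libraries, but the test was missed, with a log2 change of -0.50 (95% interval -0.84 to -0.16, limma adjusted p 0.0685). Without Col-0 white light 2 the change was -0.66 and passed (limma adjusted p 0.0177). That library held the lowest white-light value of PIP2-1, and the change passed in 4 of 26 alternatives. TIP2-1, a tonoplast channel for water and ammonia, measured 513, 204 and 583 TPM in the Col-0 white-light libraries and 625, 860 and 952 TPM in shade. Its groups did not overlap either, and the second white-light library lay far below the rest. The log2 change was 1.02 (95% interval 0.17 to 1.87, limma adjusted p 0.134), and without both white-light libraries numbered 2 it was 0.55 (limma adjusted p 0.370). Besides PIP2-6, TIP3-2, PIP2-1 and TIP2-1, no tested aquaporin separated the Col-0 groups. Non-overlap was thus seen in 4 of 29 aquaporins, 2 higher and 2 lower in shade, against 27.9% of all tested genes, 12.1% higher and 15.8% lower.

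**Figure D2:**
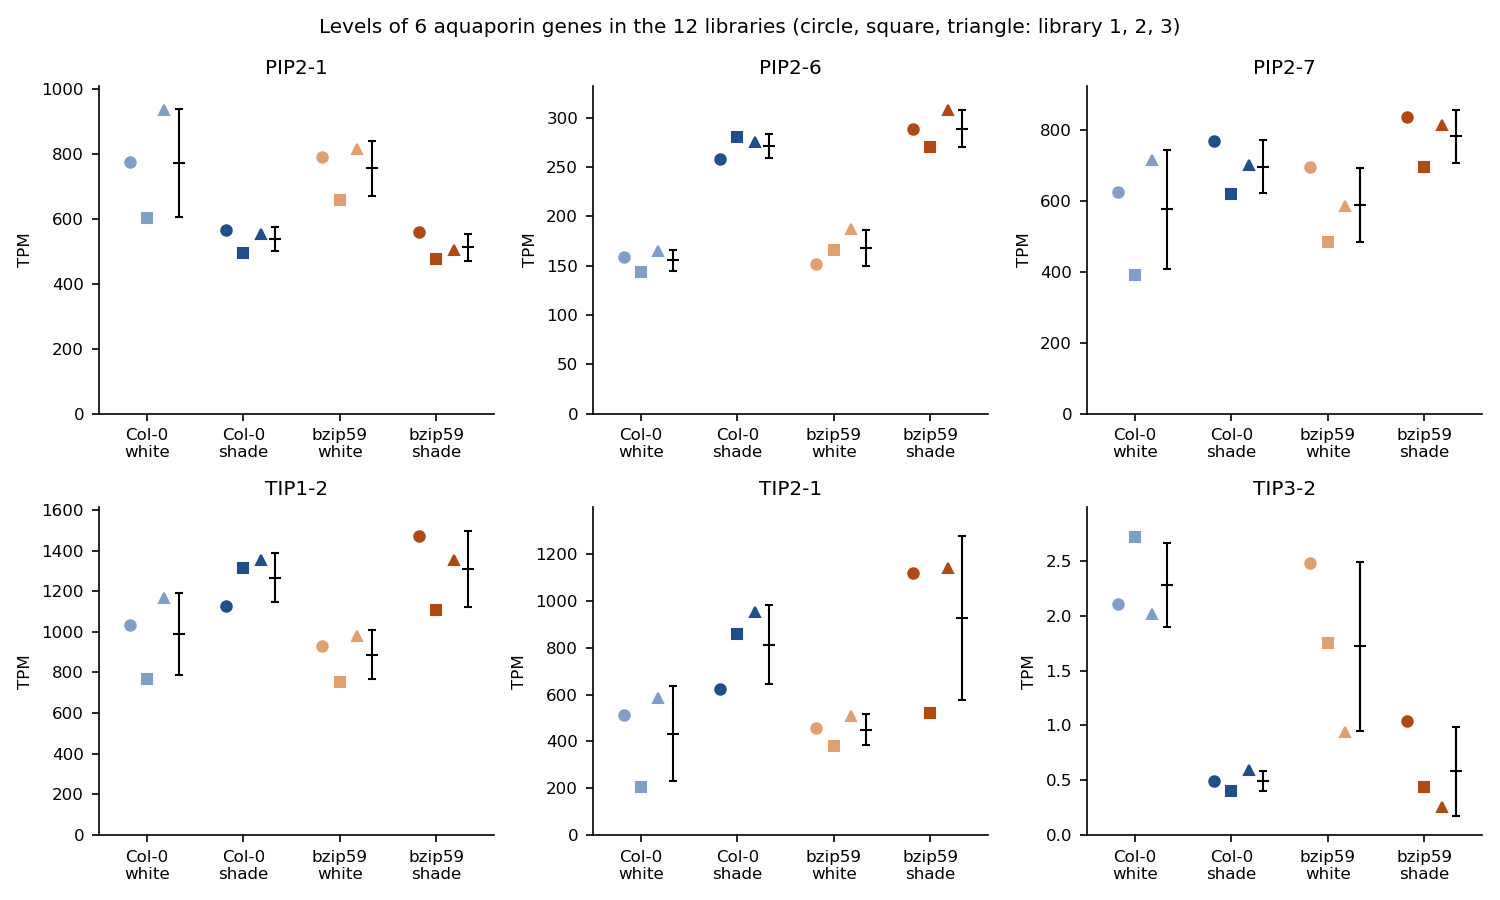
TPM (vertical axes) of PIP2-1, PIP2-6, PIP2-7, TIP1-2, TIP2-1 and TIP3-2 in the 4 groups (horizontal axes), with a marker per library and the mean ± SD beside each group. PIP2-6 lies between 144 and 187 TPM in the 6 white-light libraries and between 258 and 308 TPM in the 6 shade libraries, while PIP2-1 lies at 603 TPM or more in white light and at 565 TPM or less in shade.

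Under shade in bzip59, PIP2-6 rose and PIP2-1 fell, and the other 27 tested aquaporins did not pass. Of all tested genes 10.2% were called there, 6.49% rising and 3.7% falling, so 2 of 29 is again near the background. An unadjusted p under 0.05 was reached by 8 of 29, against 26.6% of all tested genes. The median log2 change was 0.11 for the tested aquaporins and 0.11 for all tested genes.

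PIP2-6 measured 151, 165 and 187 TPM in bzip59 libraries from white light and 288, 270 and 308 TPM in shade. As in Col-0, no shade library came near a white-light library. Its log2 change was 0.78 (95% interval 0.55 to 1.02, limma adjusted p 0.0011), the shade mean was 172% of that in white light, and all 26 alternatives kept the call. The gain in TPM was 116 in Col-0 and 121 in bzip59.

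PIP2-1 measured 791, 659 and 814 TPM in bzip59 libraries from white light and 558, 476 and 502 TPM in shade. The groups were again fully apart, and the shade mean was 67.9% of the white-light mean, against 69.7% in Col-0. The log2 change was -0.56 (95% interval -0.90 to -0.21, limma adjusted p 0.0436). That call was marginal, lost in 15 of 26 alternatives with limma adjusted p from 0.0095 to 0.140 over all 26. It was lost on leaving out Col-0 white light 1, bzip59 white light 1 or 3, or any of the 6 shade libraries (limma adjusted p 0.0517 to 0.140).

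TIP1-2 measured 930, 752 and 982 TPM in bzip59 libraries from white light and 1474, 1107 and 1352 TPM in shade, with no overlap. The log2 change of 0.56 missed the test (95% interval 0.18 to 0.94, limma adjusted p 0.0640), and it passed when Col-0 white light 2 was left out of the shared estimate of spread (limma adjusted p 0.0343). The TIP1-2 change in bzip59 passed in 4 of 26 alternatives. TIP2-1 measured 459, 378 and 510 TPM in white light and 1119, 521 and 1141 TPM in shade, a log2 change of 0.97 (95% interval 0.12 to 1.82, limma adjusted p 0.139). Its lowest shade values in the 2 genotypes were in Col-0 shade 1 and bzip59 shade 2, the libraries with a high dehydration gene sum. The part of those libraries in the result was not tested. Without both of them the TIP2-1 change was 1.20 in Col-0 (limma adjusted p 0.0749) and 1.34 in bzip59 (limma adjusted p 0.0533). TIP3-2 measured 2.48, 1.75 and 0.94 TPM in bzip59 libraries from white light and 1.04, 0.44 and 0.26 in shade, where the groups overlapped and the change of -0.78 missed the test (limma adjusted p 0.0768), while it passed without bzip59 white light 3 (limma adjusted p 0.0482). The seed storage sum was 306, 132 and 62.6 TPM in bzip59 libraries from white light and 115, 27.1 and 6.87 in shade. In bzip59 9 of 29 aquaporins separated the 2 light groups, 6 higher and 3 lower in shade, against 32% of all tested genes, 21.5% higher and 10.5% lower.

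**Figure D3:**
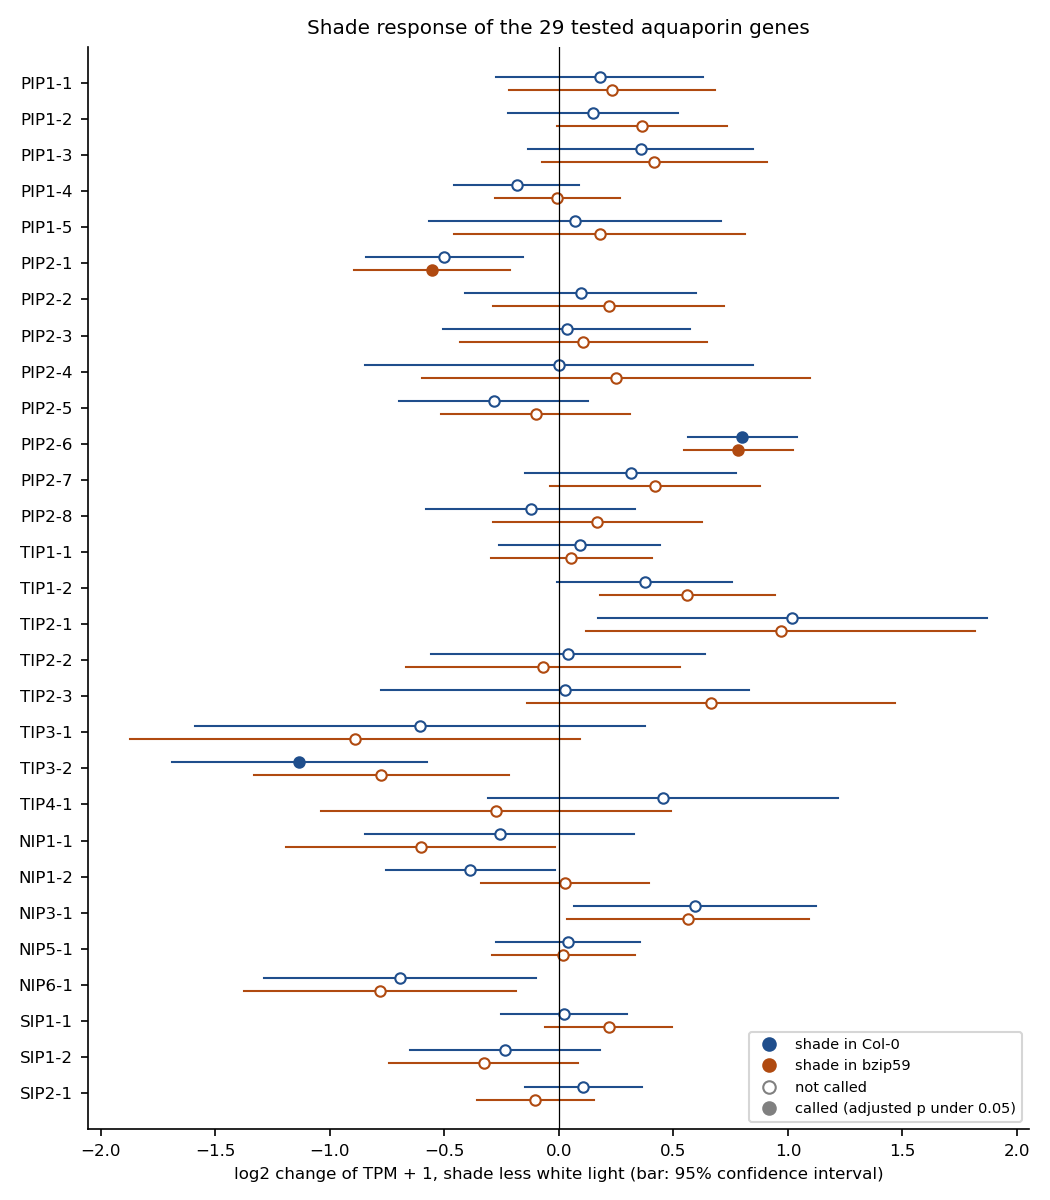
Log2 change of TPM + 1 between shade and white light (horizontal axis) for each of the 29 tested aquaporins (vertical axis) in Col-0 and bzip59, with 95% confidence intervals and filled symbols for called genes. PIP2-6 lies at 0.80 and 0.78 with the narrowest intervals to the right of 0, and PIP2-1 at -0.50 and -0.56 to the left.

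Among the 8 PIP2 genes the makeup of the pool differed between lights while its mean total was close. The summed PIP2 level in shade was 101% of that in white light in Col-0 and 106% in bzip59. Within that sum the PIP2-1 mean in shade less that in white light was -234 TPM in Col-0 and -242 TPM in the mutant. PIP2-6 and PIP2-7 were higher, PIP2-7 by 120 TPM in Col-0 and by 194 TPM in the mutant, although PIP2-7 did not pass the test in either genotype. PIP2-7 measured 626, 390 and 715 TPM in the Col-0 white-light libraries, 768, 621 and 702 TPM in Col-0 shade, 695, 484 and 587 TPM in bzip59 libraries from white light and 836, 697 and 814 TPM in bzip59 shade. Its groups overlapped in Col-0 and did not in bzip59. PIP2-7 passed for the mean shade change of both genotypes in 2 of 25 alternatives. Of these, 1 left out Col-0 white light 3 (0.46, limma adjusted p 0.0476). That library held the highest white-light value of PIP2-7, so the rise had to grow without it.

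Shares of the PIP2 sum cancel any scaling common to a library, and they are given as a description with no test. PIP2-1 made up 41.4%, 43.8% and 42.2% of PIP2 TPM in the Col-0 white-light libraries and 29.3%, 29.2% and 29.5% in Col-0 shade. In bzip59 its share was 39.4%, 42.9% and 43.4% in white light and 26.7%, 27.8% and 25.7% in shade. The share of PIP2-1 thus separated the lights in both genotypes, with less spread relative to its mean, in each of the 4 groups, than its level had. PIP2-6 made up between 7.4% and 10.7% in the 6 white-light libraries and between 13.4% and 16.6% in the 6 shade libraries. PIP2-7 made up between 28.3% and 34.6% in white light and between 36.6% and 41.6% in shade. PIP2-1 transcripts outnumbered those of PIP2-6 between 3.99 and 5.70 to 1 in white light and between 1.63 and 2.19 to 1 in shade, with no library between. Shares in a sum are tied to each other, so a lower share of PIP2-1 raises the others.

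**Figure D4:**
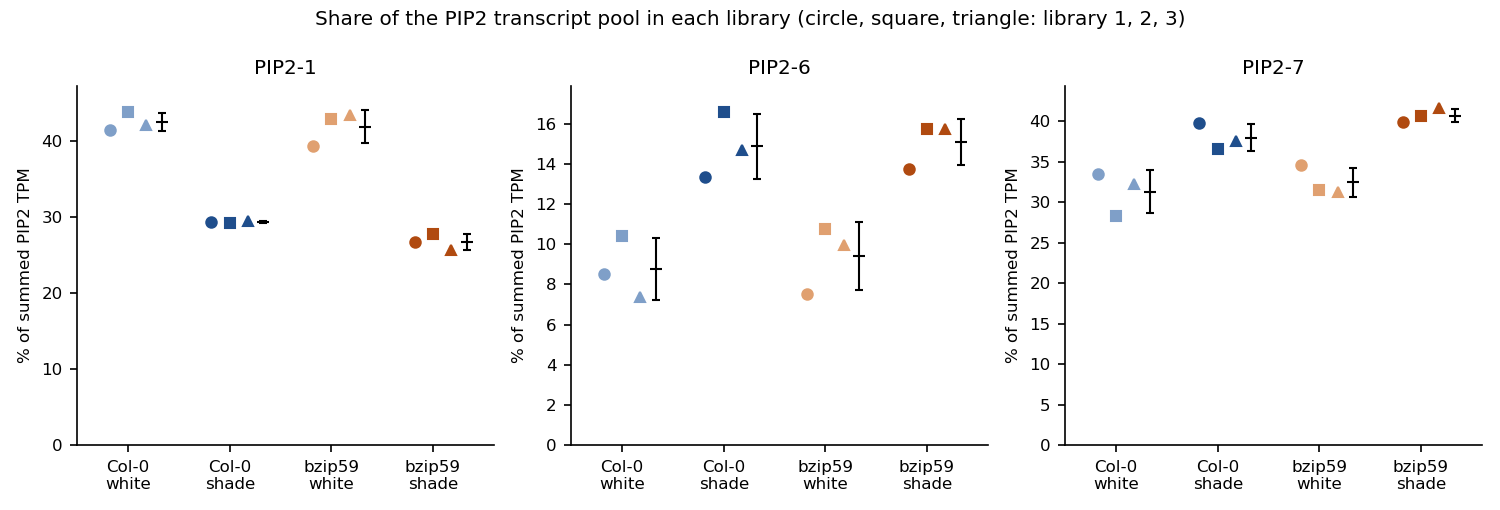
Share of summed PIP2 TPM (vertical axes, percent) taken by PIP2-1, PIP2-6 and PIP2-7 in the 4 groups (horizontal axes), with a marker per library and the mean ± SD beside each group. PIP2-1 falls between 39.4% and 43.8% in white light and between 25.7% and 29.5% in shade, and PIP2-7 is the largest part of the pool in every shade library.

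The remaining PIP2 genes gave no call with all libraries in the fit. PIP2-5 passed without Col-0 shade 1 and bzip59 shade 2, in Col-0 (-0.51, limma adjusted p 0.0478) and for the mean of both genotypes (-0.36, limma adjusted p 0.0352). It measured 6.92, 4.02 and 3.79 TPM in Col-0 shade and 4.45, 5.91 and 4.68 TPM in bzip59 shade. The 2 libraries left out held its highest shade values, so the fall had to grow without them. PIP2-4 passed in Col-0 when both white-light libraries numbered 2 were left out as well (-0.73, limma adjusted p 0.0487). Those white-light libraries stood apart by low aquaporin sums, so the PIP2-4 pass is a description and supports nothing. PIP2-2, a channel best known from roots, measured 223, 173 and 296 TPM in the Col-0 white-light libraries, 241, 223 and 258 in Col-0 shade, 271, 167 and 214 in bzip59 white light and 313, 192 and 253 in bzip59 shade, with overlapping groups. PIP2-3, PIP2-4, PIP2-5 and PIP2-8 also overlapped between lights in both genotypes.

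No PIP1 gene was called in any comparison of all 12 libraries. PIP1-3 passed for the mean shade change of both genotypes in 2 of 25 alternatives. Of these, 1 left out Col-0 white light 3 (0.49, limma adjusted p 0.0440). That library held the highest white-light value of PIP1-3, so the rise had to grow without it. Without the 4 libraries that stood apart, PIP1-4 passed in Col-0 (-0.36, limma adjusted p 0.0398), and PIP1-2 (0.41, 0.0280) and PIP1-5 (0.38, 0.0441) passed in bzip59. Of those 4, the white-light libraries numbered 2 stood apart by low aquaporin sums. These passes thus rest on a choice by the tested values and support nothing. PIP1-2 measured 635, 442 and 702 TPM in the Col-0 white-light libraries and 679, 599 and 659 TPM in Col-0 shade. In bzip59 it measured 641, 550 and 626 TPM in white light and 859, 658 and 831 TPM in shade, which did not overlap but missed the test (log2 change 0.36, limma adjusted p 0.197). PIP1-3 measured 296, 174 and 346 TPM in the Col-0 white-light libraries, 328, 314 and 364 in Col-0 shade, 288, 224 and 250 in bzip59 white light and 396, 276 and 352 in bzip59 shade. These PIP1 genes, abundant water channels of shoot and root, had higher shade means, summed over transcripts, in both genotypes. PIP1-1 measured 249, 187 and 309 TPM, then 255, 266 and 308 TPM, 289, 223 and 287 TPM, and 383, 241 and 325 TPM, in the same group order. The log2 changes of the 5 genes ran from -0.18 for PIP1-4 to 0.36 for PIP1-3 in Col-0, and from -0.01 for PIP1-4 to 0.42 for PIP1-3 in bzip59.

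Of the TIP genes, TIP1-2 in Col-0 measured 1031, 768 and 1164 TPM in white light and 1128, 1316 and 1355 TPM in shade, where the groups overlapped. TIP1-1 measured 458, 413 and 502 TPM in the Col-0 white-light libraries, 617, 408 and 455 in Col-0 shade, 576, 434 and 536 in bzip59 white light and 537, 558 and 500 in bzip59 shade. The lights overlapped for TIP1-1, which shares the vacuole membrane of vegetative cells with TIP1-2, in both genotypes. The summed TIP level in shade was 134% of that in white light in Col-0 and 145% in bzip59. Most of that difference lay in TIP1-2, higher by 279 and 423 TPM, and TIP2-1, higher by 379 and 478 TPM. TIP2-2, TIP2-3, TIP4-1 and TIP3-1 were not called, and TIP3-1, like TIP3-2 a seed vacuole channel, ranged from 0.36 to 7.25 TPM over the libraries.

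Among the NIP genes, NIP6-1, which passes boric acid to young shoot tissue, measured 12.3, 4.56 and 9.04 TPM in the Col-0 white-light libraries and 3.52, 4.41 and 6.21 TPM in shade. In bzip59 it measured 7.77, 7.1 and 8.11 TPM in white light and 3.87, 4.48 and 3.78 TPM in shade. The bzip59 groups were apart and the Col-0 groups overlapped, and neither change passed (-0.69 and -0.78, limma adjusted p 0.148 and 0.0932). NIP3-1 measured 1.57, 1.45 and 3.39 TPM in the Col-0 white-light libraries, 4.02, 4.06 and 2.75 in Col-0 shade, 2.21, 3.07 and 1.92 in bzip59 white light and 3.72, 3.52 and 4.78 in bzip59 shade. Neither of its changes passed (0.59 and 0.56, limma adjusted p 0.163 in both). Without Col-0 white light 2, NIP6-1 passed in Col-0 (-1.05, limma adjusted p 0.0120). In bzip59 NIP6-1 passed at the same change of -0.78 when the spread was estimated without that library (limma adjusted p 0.0210) or from the 2 bzip59 groups alone (limma adjusted p 0.0221). NIP6-1 passed in 3 of 26 alternatives in Col-0, where library 2 held its lowest white-light value, and in 4 of 26 in bzip59. Without Col-0 white light 3, NIP3-1 passed in Col-0 (0.86, limma adjusted p 0.0289), in that 1 of 25 alternatives. That library held the highest white-light value of NIP3-1, so the rise had to grow without it.

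The better expressed NIP genes gave no call with all libraries in the fit. NIP1-1 measured 32.5, 21.6 and 39.6 TPM in the Col-0 white-light libraries, 40.3, 19.4 and 20.3 in Col-0 shade, 38.4, 29.6 and 30.3 in bzip59 white light and 22.9, 20.5 and 19.9 in bzip59 shade. Its lights were apart in bzip59 and overlapped in Col-0, where the high shade value was in library 1. Without Col-0 shade 1 the NIP1-1 change passed for the mean of both genotypes (-0.59, limma adjusted p 0.0167), as it did in 3 of 25 alternatives. All 3 left out Col-0 shade 1, which held the highest Col-0 shade value of NIP1-1, so the fall had to grow. NIP1-2 measured 25, 14.3 and 20.1 TPM in the Col-0 white-light libraries, 15.2, 12.9 and 15.6 in Col-0 shade, 15.8, 16.4 and 17.9 in bzip59 white light and 16.2, 17.7 and 17.1 in bzip59 shade. The NIP1-2 change in Col-0 was -0.39 (limma adjusted p 0.197), and without Col-0 white light 2 it was -0.59 and passed (limma adjusted p 0.0261). That library held the lowest white-light value of NIP1-2, and the change passed in 3 of 26 alternatives. NIP5-1 measured 12.6, 11.8 and 15.1 TPM in the Col-0 white-light libraries, 14.2, 11.2 and 15.3 in Col-0 shade, 12.8, 12 and 12.4 in bzip59 white light and 12.5, 11.1 and 14.4 in bzip59 shade, a narrow range for this family.

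SIP1-1 and SIP2-1 varied as little. SIP1-1 measured 78.6, 64.2 and 85.1 TPM in the Col-0 white-light libraries, 78.9, 71 and 80.1 in Col-0 shade, 77.9, 64.3 and 66.2 in bzip59 white light and 77, 86.1 and 79 in bzip59 shade. SIP2-1 measured 26.1, 22.3 and 27.3 TPM, then 27.7, 25.3 and 28.6 TPM, 28.7, 26.6 and 25.5 TPM, and 22.5, 27.6 and 25.1 TPM in the same order. All groups of both genes overlapped between lights. SIP1-2 measured 7.68, 6.98 and 7.4 TPM, then 7.9, 4.24 and 6.67 TPM, 8.53, 6.82 and 6.37 TPM, and 5.1, 6.48 and 5.08 TPM, and none of the 3 endoplasmic reticulum genes was called in any comparison.

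**Figure D5:**
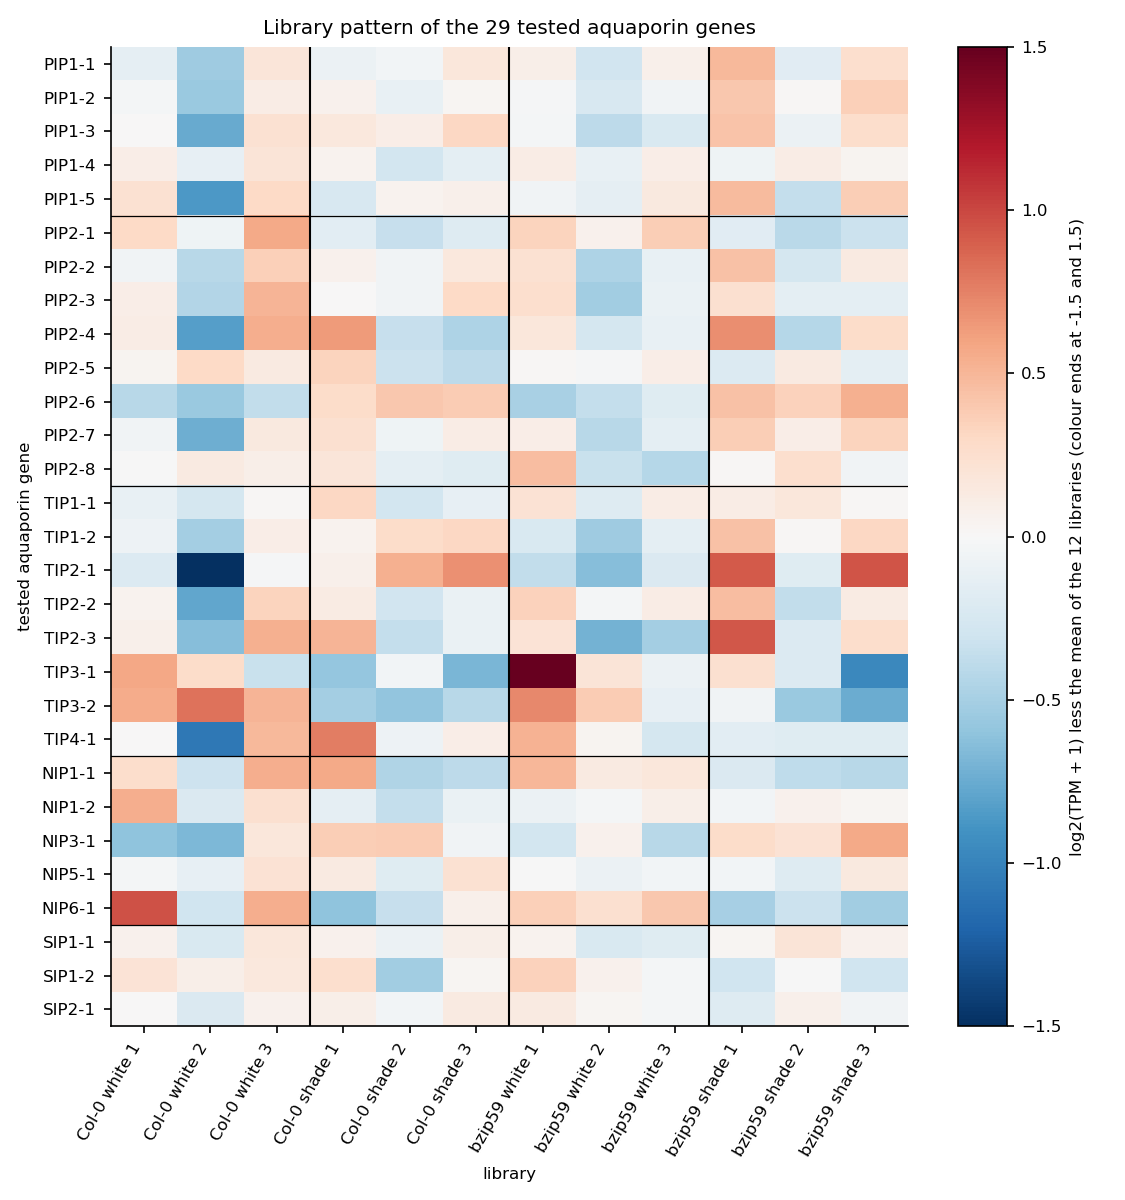
Log2(TPM + 1) of each of the 29 tested aquaporins (vertical axis) in each library (horizontal axis) less the gene's mean over the 12 libraries, as colour, with lines between groups and subfamilies. Most genes are lowest within their group in the white-light libraries numbered 2, which hold the lowest value for 25 of 29 genes in Col-0 and 20 of 29 in bzip59.

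No aquaporin was called between bzip59 and Col-0. In white light 0 of 29 were called and 0 had an unadjusted p under 0.05 in limma, where 0.0254% of all tested genes were called and 15.5% had such a p. The log2 differences ran from -0.32 for TIP2-3 to 0.41 for TIP3-1, and the latter changed sign without bzip59 white light 1, the library in which TIP3-1 read 7.25 TPM and the seed storage sum 306 TPM. The median difference was -0.01 for the aquaporins and -0.16 for all tested genes, and the latter was 0.00 after TMM scaling. In shade 0 of 29 were called and 0 had an unadjusted p under 0.05, against 0.0406% and 2.71% of all tested genes. Log2 differences there ran from -0.43 for TIP4-1 to 0.31 for TIP2-3. These extremes depended on single libraries. With each library left out in turn, the TIP2-3 difference ran from -0.64 (without Col-0 white light 2) to -0.05 (without Col-0 white light 3) in white light, and from 0.01 (without bzip59 shade 1) to 0.58 (without bzip59 shade 2) in shade. That of TIP4-1 in shade ran from -0.60 to -0.18, the latter without Col-0 shade 1. The genotypes separated for 0 of 29 aquaporins in white light, against 18.4% of all tested genes, and for 2 of 29 in shade, against 9.76%. Those 2 were NIP1-2, higher in the mutant, and TIP4-1, lower.

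Whether shade acted differently in the mutant was tested by the interaction, the shade change in bzip59 less that in Col-0. No aquaporin passed and 0 had an unadjusted p under 0.05, with 0% of all tested genes called and 8.01% at such a p. PIP2-6 differed by -0.02 (95% interval -0.35 to 0.32) and PIP2-1 by -0.06 (95% interval -0.54 to 0.43) on the log2 scale. A missed threshold does not show that the genotypes respond alike, and these intervals give the differences the data leave possible. Over the 29 genes the interaction ran from -0.73 for TIP4-1 to 0.64 for TIP2-3. With each library left out in turn it ran from -1.07 (without Col-0 white light 3) to -0.29 (without Col-0 white light 2) for TIP4-1, and from 0.34 (without bzip59 shade 1) to 0.95 (without Col-0 white light 2) for TIP2-3.

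Averaging the shade change over both genotypes in the same fit, a comparison chosen after the data were seen, called 7 of 29 aquaporins, TIP3-2 among them, and 4 of 29 without bzip59 shade 1 or without bzip59 shade 3. Calls over all genes also moved, from 2706 to 4666 with 1 library left out. The drop is thus not read as one of the aquaporins. With all libraries 19% of all tested genes were called, 9.62% rising and 9.41% falling. An unadjusted p under 0.05 was reached by 11 of 29, against 32.9% of all tested genes. PIP2-6 rose by 0.79 on the log2 scale (limma adjusted p 3.1e-05), TIP1-2 by 0.47 (0.0204), TIP2-1 by 0.99 (0.0256) and NIP3-1 by 0.58 (0.0343). PIP2-1 fell by 0.53 (limma adjusted p 0.0059) and NIP6-1 fell by 0.74 (0.0195). The value for TIP3-2 was -0.95 (limma adjusted p 0.0032) and is not read as support, since its white-light level put it in the test. PIP2-6 and PIP2-1 were called in all 25 alternatives. TIP2-1 lost its call in 6 of 25, without Col-0 shade 2 or 3, bzip59 white light 2, or bzip59 shade 1 or 3, or without both white-light libraries numbered 2 (limma adjusted p 0.0534 to 0.0681). TIP1-2 lost its call in 4 of 25, without Col-0 shade 3, bzip59 shade 1 or 3, or both white-light libraries numbered 2 (limma adjusted p 0.0529 to 0.0587). NIP3-1 lost its call in 13 of 24 (limma adjusted p up to 0.0888), 8 of them by leaving out Col-0 white light 1 or 2, Col-0 shade 1 or 2, bzip59 white light 1 or 3, or bzip59 shade 1 or 3. NIP6-1 lost it without Col-0 shade 1 and bzip59 shade 2 together (limma adjusted p 0.0597).

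Genes that act with the aquaporins were read from lists in the same fits. Shade called 9.92% of all tested genes in Col-0 and 10.2% in bzip59. Against these shares, counts in lists this small are not read as results about the lists. Of 8 tested plasma membrane proton pumps, which energise transport at the cell surface, none was called for shade in Col-0, and AHA11 rose in bzip59 (log2 change 1.19, limma adjusted p 0.0059). None of 9 vacuolar proton pump genes was called in either genotype. Of 5 tested boron exporters, which work with the NIP boric acid channels, BOR1 rose in Col-0 (0.97, limma adjusted p 0.0172), and BOR1 (0.90, 0.0278) and BOR3 (0.59, 0.0287) rose in bzip59. The BOR1 call was lost in 5 of 26 alternatives in Col-0 and in 8 of 26 in bzip59, and the BOR3 call in 7 of 26. The AHA11 call held in all 26.

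Of 13 genes for PIP trafficking and phosphorylation, 2 rose and 1 fell in Col-0, where 3.42% of all tested genes rose and 6.5% fell. In bzip59 4 rose and none fell, where 6.49% of all tested genes rose and 3.7% fell. SYP121, a syntaxin that delivers PIP2 proteins to the cell surface, rose by 0.66 in Col-0 (limma adjusted p 0.0220) and by 0.59 in bzip59 (limma adjusted p 0.0380). The SYP121 call was lost in 4 of 26 alternatives in Col-0 and in 13 of 26 in bzip59. TSPO, a membrane protein that binds PIP2-7 and leads it to degradation, fell by 1.26 on the log2 scale in Col-0 (limma adjusted p 0.0114). RMA1, a ubiquitin ligase that acts on PIP2-1, rose in bzip59 by 0.79 (limma adjusted p 0.0346). The RMA1 call was lost in 11 of 26 alternatives and the TSPO call in Col-0 in 2 of 26. For TSPO the bzip59 value was -0.13 and did not pass, and its interaction was not called (limma adjusted p 0.586).

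Marker lists of the tissues in a seedling are read against the 9.92% of all tested genes called for shade in Col-0 and the 10.2% called in bzip59. None of 8 endodermis or 5 root hair genes was called for shade in either genotype, and of 8 root genes NRT2.1 rose in bzip59 (0.89, limma adjusted p 0.0493). The NRT2.1 call was lost in 16 of 22 alternatives. The summed TPM of the root list ran from 135 to 282 in white light and from 127 to 318 in shade, and that of the root hair list from 13.8 to 49.4 and from 33.9 to 68.5. The lowest root hair sum was in Col-0 white light 2, which held the lowest value of its group for 25 of the 29 tested aquaporins. The root sum of that library was 195, between 182 and 244 in the other Col-0 white-light libraries. Its endodermis sum was 68.1, against 92.3 and 125 there, and the lowest endodermis sum, 58.1, was in bzip59 white light 2. The part of tissue makeup in the aquaporin results was not tested. Of 17 dehydration and abscisic acid genes, 3 fell in Col-0, among them RAB18 (log2 change -1.45, limma adjusted p 0.0105), and ABI1 rose in bzip59 (0.50, limma adjusted p 0.0279). The RAB18 call was lost in 1 of 26 alternatives, without Col-0 shade 3 (limma adjusted p 0.0552), and the ABI1 call in 11 of 26. Of 11 green tissue genes 1 fell in Col-0, while 2 rose and 1 fell in bzip59. Of 11 tested seed storage genes 1 fell in Col-0 and 3 fell in bzip59.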

How the data were processed

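The authors deposited a table of TPM for each transcript, as its header states, per the file headers. Reads were handled with fastp, cutadapt, HISAT2, the TAIR10 genome and DESeq2, per the submitters' processing notes. The tool behind TPM, strandedness and the treatment of reads shared by gene copies are not stated in the sources used here. The TPM of 54013 transcripts, 57 of them from members, was summed per gene. The 4 group mean columns were not used.

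All tests ran in limma 3.58.1 (R 4.3.3, with the data.table package at version 1.17.8) with an intensity trend, on log2(TPM + 1) of genes averaging at least 1 TPM. This scale understates changes of low genes. One fit of 4 group means gave 5 contrasts and, added later, the mean shade change. The fit was also run on simulated data with independent noise. That simulation held no libraries that stand apart, so it does not test the fit for such libraries. Count-based tests were not run because no counts were used here. Plots came from matplotlib 3.10.9 and numpy 2.4.6 under Python 3.11.15.

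The members and lists were chosen with earlier results of these data known. Every library was to be listed for each member called and for the 3 highest members of each subfamily. NIP3-1 and NIP6-1 were added for the mean shade change, after their values were seen. At most 2 called genes of each list were to be named per comparison. Alternatives were pseudocounts of 0.1 and 0.5, no filter and a filter at 5 TPM, TMM factors and quantile normalization. Others were no intensity trend, a replicate block, only the 2 groups compared, removal of the trend with gene length, the most abundant transcript, and leaving out libraries. Sequences of the members are not printed here.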

Additional observations from a re-analysis of the deposited data

How the results depend on the processing

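PIP2-6 kept its direction and its call under shade in all 26 alternatives in each genotype. Some of these could alter only the estimate of spread and not the change itself, such as leaving out a library of the other genotype. The 2 aquaporin calls for shade in Col-0 became 1 with a filter at 5 TPM, which removes TIP3-2, TIP3-1 and NIP3-1 from the test, and 4 without both white-light libraries numbered 2 (leaving out 1 library at a time, 1 to 4). The 2 calls for shade in bzip59 became 1 with no filter, with quantile normalization, with no intensity trend, with the most abundant transcript, and without Col-0 shade 1 and bzip59 shade 2, PIP2-1 being no longer called in any of these. With 1 library left out at a time the count ran from 1 to 4. Without these 4 libraries, a choice made after the data were seen that leaves 2 libraries a group and drops those that stood apart, 8 aquaporins were called in each genotype, PIP2-6, PIP2-1, TIP2-1, NIP6-1 and NIP1-1 in both, PIP1-4, PIP2-4 and NIP1-2 in Col-0 and PIP1-2, PIP1-5 and TIP1-2 in bzip59. The white-light libraries numbered 2 stood apart by low aquaporin sums, so calls gained by leaving them out support nothing. Without Col-0 shade 1 and bzip59 shade 2, PIP2-5 was gained in Col-0 and PIP2-5 and NIP1-1 (-0.58, limma adjusted p 0.0341) for the mean shade change. Col-0 shade 1 held the highest Col-0 shade value of both genes. The 7 calls of the mean became 4 without both white-light libraries numbered 2 (1 library at a time, 4 to 9). Genotype and interaction calls were 0 in every alternative. The replicate numbers were not taken to pair the libraries, since only 3 of 18 pair correlations exceeded 0.1 (-0.15 to 0.25). That 9 of 12 libraries correlated best with their own number is a hint from the data, not the design. With the replicate block 3 aquaporins were called in Col-0, 3 in bzip59 and 9 for the mean, among the latter PIP1-3 (0.39, limma adjusted p 0.0418), PIP2-7 (0.37, 0.0292) and TIP3-1. Aquaporin counts in this paragraph are given without the share of all tested genes called in the same setting. None of them is read as a result about the family.

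Calls over all genes moved by more than 1.5 times in these cases. With only the 2 groups compared, 1165 in place of 1954 genes were called for shade in Col-0, 1191 in place of 2007 in bzip59, 1 in place of 5 between genotypes in white light and 2 in place of 8 in shade. With single libraries left out the counts ran from 978 to 2425 for shade in Col-0 and from 867 to 3297 in bzip59. They ran from 3 to 14 between genotypes in white light, from 5 to 9 in shade and from 0 to 4 for the interaction. For the mean they ran from 2706 to 4666, which stayed within 1.5 times of its 3748. Without the 4 libraries the genotype counts were 59 and 23 and the interaction count 22 in place of 0. Without Col-0 shade 1 and bzip59 shade 2 the interaction count was 9 and the white-light genotype count 10, which was 8 with no filter and 3 with the most abundant transcript. The shade genotype count was 4 with the filter at 5 TPM, and the interaction count 2 with no filter and without both white-light libraries numbered 2.

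Signs were followed through the alternatives for selected changes only, and 3 of those differences changed sign, none of them called. The PIP1-2 shade change in Col-0 was not followed, and its most abundant transcript went the other way. The PIP2-1 interaction of -0.06 became 0.0666 with quantile normalization, 0.0323 without Col-0 shade 1 and bzip59 shade 2, 0.0147 without both white-light libraries numbered 2 and 0.103 without all 4, and ran from -0.207 to 0.109 with 1 library left out. The PIP2-6 interaction of -0.02 became 0.0482 with quantile normalization, 0.0308 without the 2 white-light libraries and 0.0412 without all 4, and ran from -0.0893 to 0.0629 with 1 library left out. The white-light genotype difference of TIP3-1, 0.41, was -0.12 without bzip59 white light 1 and ran up to 0.739 with other libraries left out. The cause was not tested. The interaction has no fit of only 2 groups. TPM keeps no depth, so the precision of genes near 1 TPM is unknown.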

Other observations

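Transcript-level values of PIP1-2 were used only in the alternative with the most abundant transcript, which took its transcript 1. Of its TPM 67.2% was in transcript 1 and 26.3% in transcript 3. Transcript 3 was listed at 0 in Col-0 white light 2 and 3 and at 115 TPM in the first Col-0 white-light library, and at 271, 174 and 245 TPM in Col-0 shade. In bzip59 it measured 151 ± 46.3 TPM in white light and reached 273 ± 85 TPM in shade (n = 3). Transcript 1 measured 519 ± 128 TPM in the Col-0 white-light libraries and 385 ± 10.7 TPM in those from shade. The split of reads between transcripts of a gene is an estimate, by a method that the sources used here do not give.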
